A study of Mus musculus with 24 samples.

Results

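Core circadian clock genes are the 10 genes *Arntl*, *Clock*, *Npas2*, *Per2*, *Per3*, *Cry1*, *Cry2*, *Nr1d1*, *Nr1d2* and *Dbp*, chosen by symbol for their function from the 38293 genes listed for the mRNA libraries of the nucleus accumbens (NAc). All 10 passed the filter on low counts, as did 18593 genes in total. The molecular clock is a feedback loop that most cells run over the day. CLOCK, or its forebrain relative NPAS2, pairs with BMAL1, the product of *Arntl*, and the pair binds E-boxes in the promoters of the *Per* and *Cry* genes, *Nr1d1*, *Nr1d2* and *Dbp*. PER and CRY proteins then block the pair that made them, while the nuclear receptors REV-ERBα and REV-ERBβ (*Nr1d1* and *Nr1d2*) repress *Arntl* through ROR elements. In most tissues mRNA of *Arntl* therefore peaks at a time of day opposite to that of *Per2* and *Dbp*, and clock genes of the NAc are known for their links to reward and mood.

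The mice were C57BL/6J males and females, 9 weeks old by the sample labels, either exposed to Subchronic Variable Stress (SCVS), in which foot shock, tail suspension and restraint alternate over consecutive days, or left unstressed. The groups were unstressed males (NSM), stressed males (SM), unstressed females (NSF) and stressed females (SF), with 3 mRNA libraries each, and every library was 1 pool of 10 NAc punches from 5 mice, so that values of single mice are not seen and p-values measure the spread between pools. Tissue was taken the day after the last stressor, and all females were in proestrus or estrus. The time of day of collection is not given in the sources used here.

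Between 41076780 and 60867747 reads per mRNA library fell on genes. The 10 markers of striatal projection neurons summed to 4449 to 5641 CPM (read counts scaled to the size of the library) in all 12 libraries. Striatal neurons were thus present in each, and no other tissue was compared. Libraries also differed in markers of cells outside the accumbens. The 10 markers of cortical glutamatergic neurons, all of which passed the filter, summed to 139 to 160 CPM in NSM, 222 to 379 CPM in SM, 169 to 572 CPM in NSF and 203 to 294 CPM in SF libraries.

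The elements named above were looked for in the promoters of clock genes. Promoter windows of 250 bases before and 50 after the start of transcription were taken from RefSeq (build GRCm38.p6). Of the 10 members 9 had windows, 12 in all, while *Per2* had none, and windows were also found for other genes of the pathway. They were searched on both strands for the E-box CACGTG, its variant CACGTT, the D-box TTANGTAA (N is any base), the ROR elements TAGGTCA and TGGGTCA, and the cAMP response element TGACGTCA. Of all 32851 windows of the table, 7.15% held the E-box, 4.68% the variant, 2.32% the D-box, 6.45% a ROR element and 1.79% the cAMP response element. No 2 of the motifs overlapped in the windows shown here. The following 250 bases before the start, 5′ to 3′ on the strand of the gene with the matches in capitals, are shown because they belong to genes described below and hold the elements of both sides of the loop.
*Ciart* promoter, chr3:95882229-95882478, minus strand: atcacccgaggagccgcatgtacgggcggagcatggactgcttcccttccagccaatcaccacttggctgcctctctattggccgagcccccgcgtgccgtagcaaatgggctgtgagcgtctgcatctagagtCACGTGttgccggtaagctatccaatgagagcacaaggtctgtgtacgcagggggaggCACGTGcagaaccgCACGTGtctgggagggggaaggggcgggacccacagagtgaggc
*Per1* promoter, chr11:69098699-69098948, plus strand: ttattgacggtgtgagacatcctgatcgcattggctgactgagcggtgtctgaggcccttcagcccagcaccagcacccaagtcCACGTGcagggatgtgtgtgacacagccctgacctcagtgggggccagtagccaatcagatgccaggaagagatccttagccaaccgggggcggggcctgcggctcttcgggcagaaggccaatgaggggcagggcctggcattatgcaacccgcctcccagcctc
*Cry1* promoter, chr10:85185055-85185304, minus strand: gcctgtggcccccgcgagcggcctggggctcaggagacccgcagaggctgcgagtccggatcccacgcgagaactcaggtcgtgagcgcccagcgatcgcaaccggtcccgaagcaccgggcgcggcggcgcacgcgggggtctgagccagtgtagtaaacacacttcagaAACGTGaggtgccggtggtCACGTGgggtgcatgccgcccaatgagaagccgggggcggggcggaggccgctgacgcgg
*Per3* promoter, chr4:151044666-151044915, minus strand: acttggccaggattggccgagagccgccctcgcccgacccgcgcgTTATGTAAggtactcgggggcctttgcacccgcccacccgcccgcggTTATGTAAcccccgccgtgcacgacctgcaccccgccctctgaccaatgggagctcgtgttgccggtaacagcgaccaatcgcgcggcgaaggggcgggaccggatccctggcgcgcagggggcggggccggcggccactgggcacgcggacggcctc
*Nfil3* promoter, chr13:52981040-52981289, minus strand: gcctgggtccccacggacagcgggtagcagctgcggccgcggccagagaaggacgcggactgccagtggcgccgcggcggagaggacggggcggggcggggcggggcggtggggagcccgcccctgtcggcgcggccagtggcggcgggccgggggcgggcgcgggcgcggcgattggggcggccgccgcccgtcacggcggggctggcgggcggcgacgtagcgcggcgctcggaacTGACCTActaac
*Arntl*, 27 bases after one of its starts, chr7:113207531-113207557, plus strand: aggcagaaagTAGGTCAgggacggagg

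The window of *Ciart*, a repressor of the CLOCK and BMAL1 pair, held 3 E-boxes, with their first bases 116, 58 and 44 bases before the start. The window of *Per1* shown above, the sister gene of *Per2*, held 1 at 166 bases. Among the members with a window *Cry1* alone had the E-box, at 60 bases before the start. It also had the variant, read on the other strand, at 79 bases before the start. *Per3* had D-boxes at 205 and 158 bases, the element bound by DBP and NFIL3. The ROR element stood 30 bases after a start of *Arntl* and, read on the other strand, 12 bases before that of *Nfil3*. *Cry2* and *Nr1d1* held only the E-box variant, at 166 and 28 bases before their starts. None of these letters occurred in the windows of *Clock*, *Npas2*, *Dbp* and *Nr1d2*, which says nothing of sites elsewhere. The same held for the pathway genes *Id2* and *Rora* and for another window of *Per1*.

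All 10 genes were well expressed in the NAc, at a mean of 5.49 to 31.4 RPKM (CPM divided by exon length in kilobases) over the 12 libraries. On this length-corrected scale the 2 REV-ERB genes stood highest, *Nr1d2* at 31.4 ± 1.503 RPKM (SD, n = 12) and *Nr1d1* at 29.9 ± 1.99 RPKM. *Cry2* followed at 21.9 ± 0.709 RPKM, then *Npas2* at 19.8 ± 1.54 RPKM, and *Dbp* at 16.4 ± 2.00 RPKM. *Npas2* thus stood above its relative *Clock*, at 12.1 ± 0.423 RPKM, and their partner *Arntl* had 11.6 ± 1.49 RPKM. The lowest levels were those of *Cry1* at 10.7 ± 0.674 RPKM, *Per2* at 9.95 ± 1.51 RPKM and *Per3* at 5.49 ± 0.576 RPKM. Neighbours in this order overlapped in their ranges over libraries except at 3 steps, between *Nr1d1* and *Cry2*, between *Dbp* and *Clock*, and between *Per2* and *Per3*.

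The members differed in how much they varied. Over the 12 libraries the coefficient of variation was 15.1% for *Per2*, 12.8% for *Arntl*, 12.2% for *Dbp* and 10.5% for *Per3*. It was 3.24% for *Cry2* and 3.49% for *Clock*, the steadiest of the 10, and lay between 4.79% and 7.76% for *Nr1d2*, *Cry1*, *Nr1d1* and *Npas2*. The plot of CPM by library shows this spread within and between the groups.

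**Figure D1:**
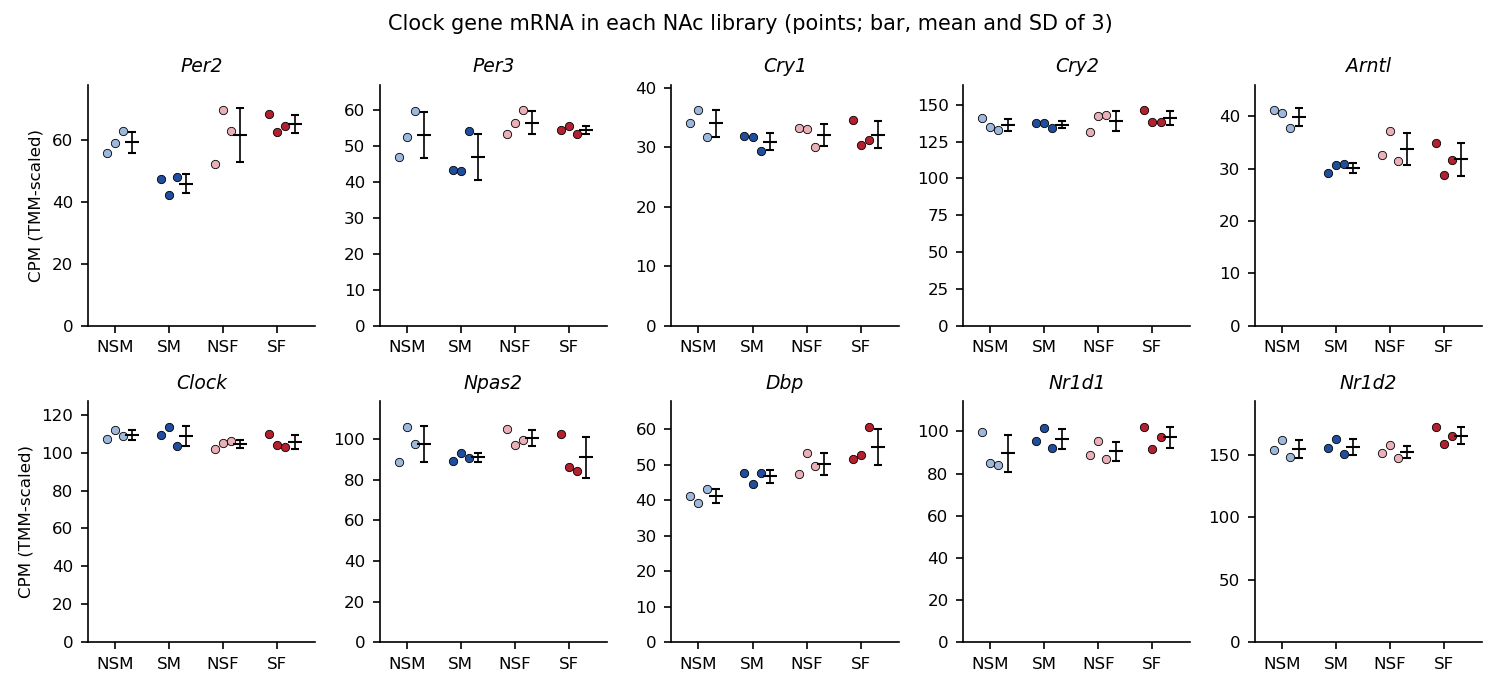
TMM-scaled CPM (vertical axes, from 0) of each of the 10 clock genes in the 3 libraries of NSM, SM, NSF and SF (points), with the mean and SD of each group (bars). *Per2* and *Arntl* in SM lie below all NSM libraries, *Dbp* in SM lies above all NSM libraries, and *Cry2* and *Clock* are nearly level.

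The first comparison asked how SCVS changed the clock in males. *Arntl* and *Per2*, from opposite sides of the loop, fell in stressed males, to 0.759 and 0.775 times the unstressed level, and the other 8 members did not pass the test. The 2 calls among 10 members stood beside 3.32% of all tested genes called at an adjusted p under 0.05 (limma), with 1.84% called lower and 1.48% called higher. By the rule of the study, an unadjusted p under 0.05 and a change of at least 1.3-fold, *Arntl* alone passed, against 6.44% of all genes. *Per2* fell short of the fold in this fit, and passed the rule under scaling by library size. The median log2 fold change was -0.05 for the members and -0.01 for all tested genes.

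Among the activators, *Arntl*, which encodes BMAL1, had 41.1, 40.6 and 37.8 CPM in the 3 NSM libraries and 29.1, 30.6 and 30.9 CPM in the 3 SM libraries. Every SM library lay below every NSM library, and the SM libraries were close to each other. The log2 fold change of *Arntl* was -0.40 ± 0.08 (SE, adjusted p = 0.018, limma). Its partners were nearly level. *Clock* had 107 to 112 CPM in NSM and 103 to 114 CPM in SM libraries, a log2 fold change of -0.01 ± 0.05 (SE) that turned to 0.03 with the cortical markers as a covariate. *Npas2* had 88.4 to 106 CPM in NSM and 88.9 to 93.2 CPM in SM libraries, a log2 fold change of -0.10 (adjusted p = 0.487, limma). The group ranges of *Clock* and of *Npas2* overlapped.

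Among the repressors, *Per2* had 56.0, 59.1 and 63.0 CPM in NSM libraries and 47.7, 42.5 and 48.1 CPM in SM libraries. The groups did not overlap, and the log2 fold change was -0.37 ± 0.09 (SE, adjusted p = 0.043, limma). *Per3* had 47.0, 52.6 and 59.6 CPM in NSM and 43.4, 43.2 and 54.3 CPM in SM libraries, so that its groups overlapped. Its log2 fold change was -0.18 ± 0.09 (SE, adjusted p = 0.288, limma). *Cry1* had 31.7 to 36.2 CPM in NSM and 29.3 to 31.96 CPM in SM libraries, a log2 fold change of -0.13 ± 0.07 (SE, adjusted p = 0.272, limma). *Cry2*, the most abundant of the repressors, had 133 to 141 CPM in NSM and 134 to 138 CPM in SM libraries. Its log2 fold change was 0.0034 ± 0.05 (SE), and took a negative sign under scaling by library size (-0.05).

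The REV-ERB genes, which repress *Arntl*, showed no change past the test in males. *Nr1d1* had 84.1 to 99.7 CPM in NSM and 92.0 to 102 CPM in SM libraries, a log2 fold change of 0.11 ± 0.07 (SE, adjusted p = 0.387, limma). *Nr1d2* had 148 to 162 CPM in NSM and 151 to 163 CPM in SM libraries, a log2 fold change of 0.02 that turned to -0.03 under scaling by library size. *Dbp*, an output gene whose protein activates D-box genes, had 41.2, 39.3 and 43.2 CPM in NSM and 47.6, 44.7 and 47.7 CPM in SM libraries. Its groups did not overlap, but the log2 fold change of 0.18 ± 0.07 (SE) did not pass the test (adjusted p = 0.155, limma). In all, 2 members lay lower and 1 higher in SM without overlap of the groups, beside 11.7% and 11.3% of all tested genes.

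**Figure D2:**
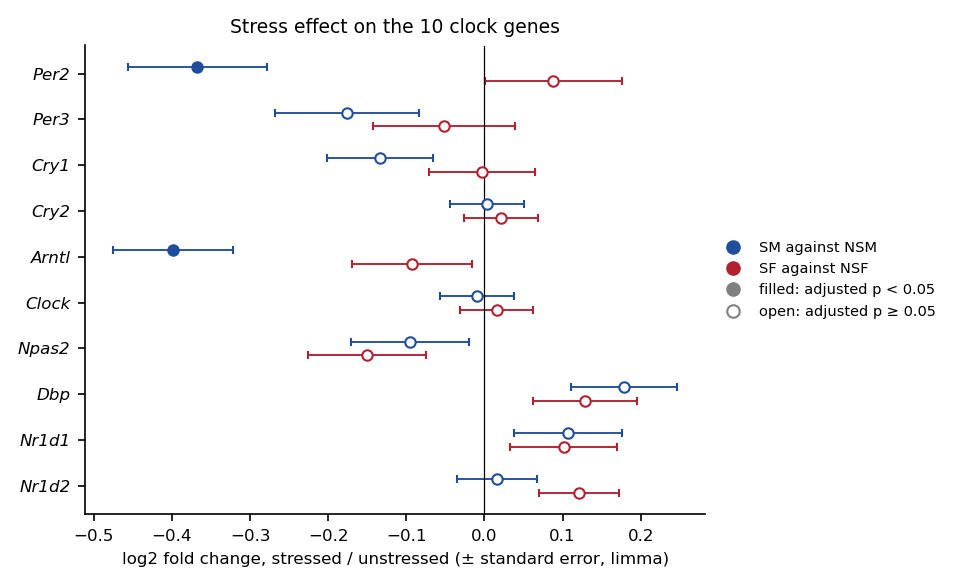
Log2 fold change (horizontal axis) with its standard error for each of the 10 clock genes, stressed against unstressed males in blue and stressed against unstressed females in red, filled where the adjusted p was under 0.05. Filled points are seen for *Arntl* at -0.40 and *Per2* at -0.37 in males, and no female point is filled.

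The 2 calls in males rested on few pools, and so did the number of genes called in males, which was 79 without SM2 and 972 without SM3, against 618 with all libraries. That of *Arntl* was lost without NSM2 (adjusted p = 0.060, limma), SM1 (adjusted p = 0.067) or SM2 (adjusted p = 0.086). That of *Per2* was lost without any of 8 libraries. Its adjusted p (limma) was 0.105 without NSM2, 0.174 without NSM3, 0.098 without SM1 and 0.200 without SM2. It was 0.057 without NSF3, 0.051 without SF1, 0.058 without SF2 and 0.061 without SF3. These last 4 are female libraries, which enter the comparison of males only through the filter, the scaling and the shared estimate of the spread. The fold changes kept their sign in every one of these fits.

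Markers of other cells moved with male stress. All 10 cortical markers had higher means in SM than in NSM, with log2 fold changes of 0.23 to 3.76 and none past the test. With their mean log2 CPM as a covariate the log2 fold change was -0.28 for *Arntl* (adjusted p = 0.199, limma) and -0.24 for *Per2* (adjusted p = 0.316, limma). In that fit 1 of all 18593 genes was called, against 618 without the covariate. The covariate did not overlap between the male groups, at 0.072 to 1.20 in NSM and 1.98 to 3.56 in SM libraries. The loss of calls therefore cannot tell cortical tissue from stress. All 5 red blood cell markers rose, summing to 21.8 to 27.4 CPM in NSM and 38.5 to 47.2 CPM in SM libraries. Of 5 oligodendrocyte markers 2 rose, and the sum was 4275 to 4779 CPM in NSM and 5158 to 5199 CPM in SM. Of 5 microglial markers 2 passed the test, with a sum of 205 to 225 CPM in NSM and 232 to 259 CPM in SM. Other markers went down without passing the test. All 5 choroid plexus markers had negative log2 fold changes, from -2.43 to -0.05, and so had all 5 astrocyte markers, from -0.16 to -0.01. Of 5 endothelial markers 2 were higher and 3 lower, also without passing the test. The part of these blood, oligodendrocyte, microglial, choroid plexus, astrocyte and endothelial cells in the changes of *Arntl* and *Per2* was not tested. In such bulk tissue fewer cells of a type and less RNA per cell cannot be told apart.

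**Figure D3:**
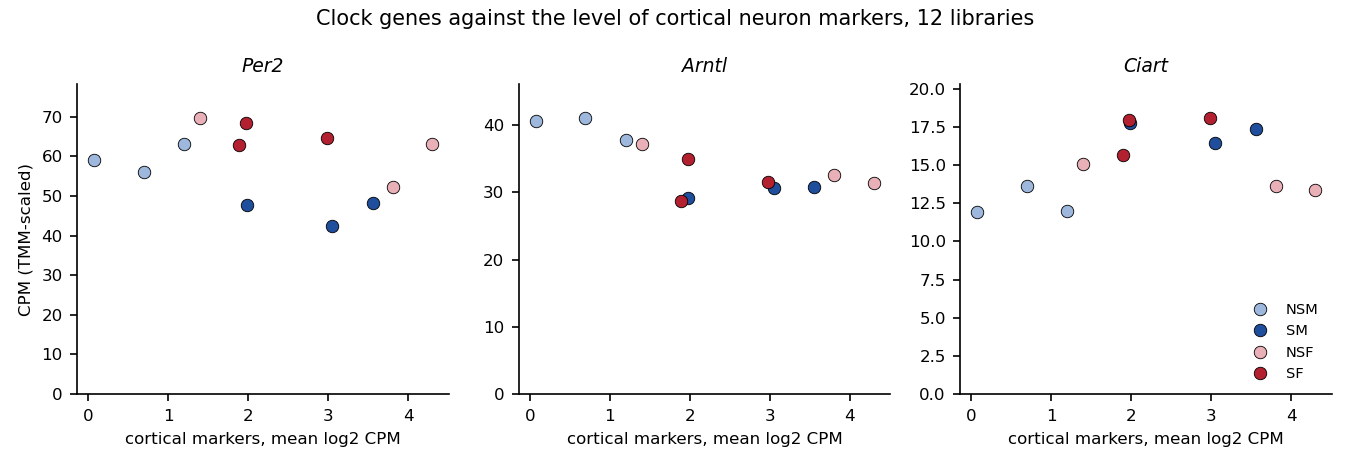
TMM-scaled CPM of *Per2*, *Arntl* and *Ciart* (vertical axes, from 0) against the mean log2 CPM of the 10 cortical neuron markers (horizontal axes), 1 point per library and colored by group. The NSM libraries lie at the lowest marker levels, at or under 1.20, the SM libraries lie between 1.98 and 3.56, and the NSF libraries lie between 1.40 and 4.30.

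Other genes of the pathway were taken from a list of 23, chosen for function, all of which passed the filter. In males 3 of them rose, 1 fell and 19 did not pass the test, beside 1.48% of all tested genes called higher and 1.84% called lower. The median log2 fold change of the list was 0.04, and without overlap of the groups 7 of its genes lay higher and 3 lower in SM, beside 11.3% and 11.7% of all tested genes. *Ciart*, the E-box gene with 3 elements shown above, had 13.6, 11.9 and 12.0 CPM in NSM and 17.7, 16.5 and 17.4 CPM in SM libraries. The groups were far apart, and *Ciart* rose with a log2 fold change of 0.46 ± 0.08 (SE, adjusted p = 0.010, limma), a call lost only without NSM3 among the fits that left out 1 library (adjusted p = 0.055). In this fit *Per2* and *Ciart*, both known as targets of the CLOCK and BMAL1 pair, thus changed in opposite directions. Binding of the pair was not measured, and *Per2* had no promoter window. Both calls were lost with the cortical covariate.

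*Id2*, whose protein inhibits factors of the family of CLOCK and BMAL1, had 42.6, 42.7 and 37.1 CPM in NSM and 53.3, 54.6 and 52.2 CPM in SM libraries. It rose with a log2 fold change of 0.39 ± 0.09 (SE, adjusted p = 0.036, limma). *Rora*, an activator at ROR elements, had 43.3, 44.97 and 41.2 CPM in NSM and 49.4, 52.1 and 49.1 CPM in SM libraries. It rose with a log2 fold change of 0.22 ± 0.05 (SE, adjusted p = 0.044, limma). *Nfil3*, a repressor at D-boxes with the ROR element shown above, had 6.41, 6.34 and 5.86 CPM in NSM and 5.29, 4.61 and 4.05 CPM in SM libraries. It fell with a log2 fold change of -0.43 ± 0.10 (SE, adjusted p = 0.043, limma). *Dbp*, the activator at the same element, had the higher values given above, which did not pass the test. A joint change at D-boxes was not tested. The groups of *Id2*, *Rora* and *Nfil3* did not overlap, and these are among the genes without overlap counted above.

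These 3 calls also rested on few pools and on the processing. Of 11 alternatives other than those leaving out 1 library, 5 lost the call of *Nfil3*, 4 that of *Rora* and 3 that of *Id2*. Each count includes the cortical covariate given below. For *Nfil3* it also includes edgeR's quasi-likelihood test (adjusted p = 0.052) and quantile normalization (adjusted p = 0.059, limma). Without NSM2, NSM3, SM1 or SM2 in turn the adjusted p of *Id2* was 0.060, 0.137, 0.100 and 0.137, and that of *Rora* 0.053, 0.144, 0.095 and 0.183 (limma). *Id2* was also lost without SF3 (0.050), and *Rora* without NSM1 (0.054), SF2 (0.050) and SF3 (0.061). The call of *Nfil3* was lost without NSM1 (adjusted p = 0.075), NSM2 (0.109), NSM3 (0.089), SM2 (0.162), SM3 (0.083), NSF1 (0.063), SF1 (0.052), SF2 (0.059) or SF3 (0.058). With the cortical covariate all 4 calls were lost, with log2 fold changes of 0.52 for *Ciart* (adjusted p = 0.070, limma), 0.24 for *Id2* (adjusted p = 0.311), 0.29 for *Rora* (adjusted p = 0.109) and -0.42 for *Nfil3* (adjusted p = 0.204), so that of these only the value of *Id2* was smaller by over 0.1.

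The next 6 genes of the list by p-value in males did not pass the test. *Nampt*, which makes the cofactor of the deacetylase SIRT1, had a log2 fold change of 0.21 (adjusted p = 0.076, limma) and passed in 4 of 11 alternatives, at an adjusted p from 0.024 to 0.049, and without SM3 (adjusted p = 0.040). For *Usp2*, a deubiquitinase and clock output gene, it was 0.16 and passed with DESeq2 alone (adjusted p = 0.031), and for *Fbxl21*, a ubiquitin ligase subunit that acts on CRY proteins, it was 0.25. *Per1* had 105, 126 and 139 CPM in NSM and 108, 101 and 105 CPM in SM libraries, a log2 fold change of -0.23 (adjusted p = 0.141, limma) that passed without NSM1 (-0.33, adjusted p = 0.023). *Rorb*, a relative of *Rora*, had 0.22, and *Csnk1e*, a kinase that acts on PER proteins, had -0.13. All 3 *Per* genes thus had lower means in SM than in NSM, with only *Per2* past the test.

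**Figure D4:**
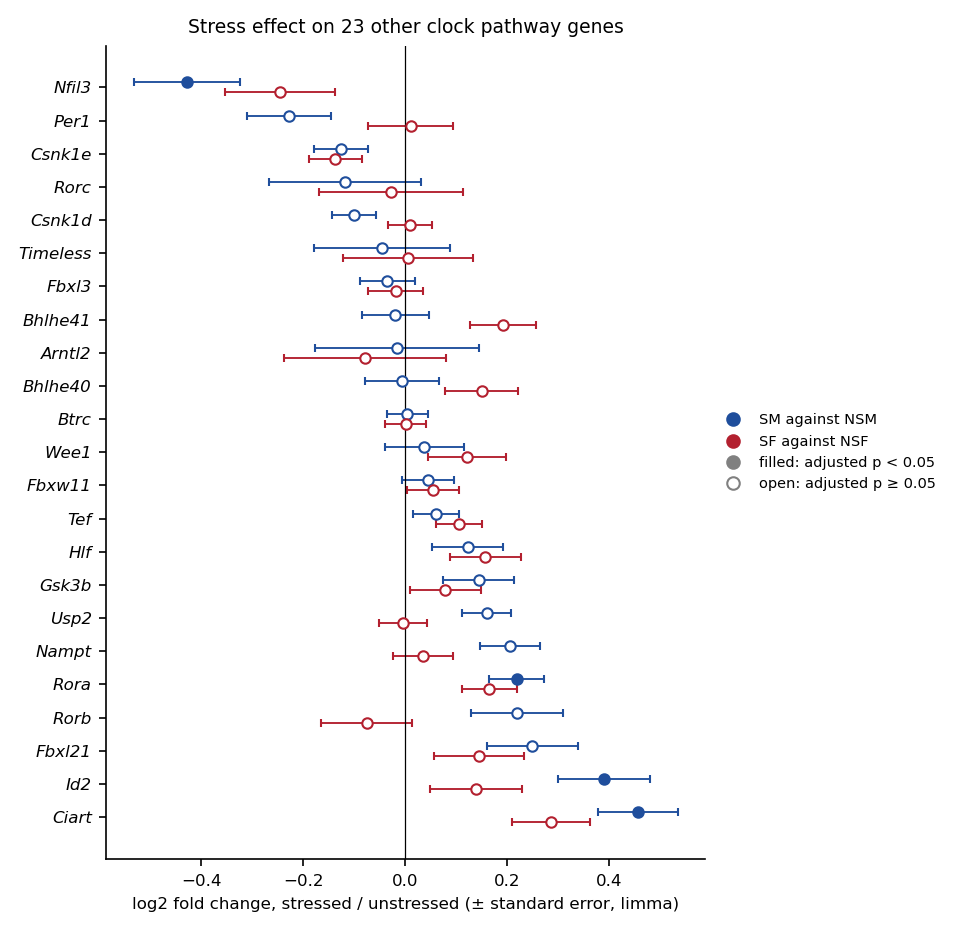
Log2 fold change (horizontal axis) with its standard error for the 23 other clock pathway genes, ordered by the value in males, for males in blue and females in red, filled where the adjusted p was under 0.05. Filled points are *Nfil3* at -0.43, *Rora* at 0.22, *Id2* at 0.39 and *Ciart* at 0.46 in males, while female points for these genes have the same sign and are open.

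The second comparison asked the same question in females. No gene of the NAc passed an adjusted p under 0.05 in SF against NSF with limma (0% of all tested genes, 786 at an unadjusted p under 0.05), nor with edgeR's quasi-likelihood test, and 3 did with DESeq2, so no member was called. Without NSF2 61 genes were called in females with limma, and again no member. One member, *Nr1d2*, had an unadjusted p under 0.05, beside 4.23% of all genes. It had 152, 158 and 148 CPM in NSF and 172, 159 and 165 CPM in SF libraries, which did not overlap, as for 11.3% of all tested genes. Its log2 fold change was 0.12 ± 0.05 (SE, adjusted p = 0.948, limma).

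The pair of genes that fell in males had small differences in females. *Arntl* had 32.5, 37.2 and 31.4 CPM in NSF and 34.9, 28.7 and 31.6 CPM in SF libraries, a log2 fold change of -0.09 ± 0.08 (SE). *Per2* had 52.3, 69.7 and 63.2 CPM in NSF and 68.4, 62.9 and 64.6 CPM in SF libraries. Its unstressed pools spread widely, and the log2 fold change of 0.09 ± 0.09 (SE) turned to -0.02 in a fit that left out 1 library. Both genes overlapped between the female groups.

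*Dbp* had 47.3, 53.4 and 49.6 CPM in NSF and 51.5, 52.6 and 60.6 CPM in SF libraries, a log2 fold change of 0.13 ± 0.07 (SE). The other 6 members had log2 fold changes between -0.15 and 0.10. Of the 23 other pathway genes none was called. Without overlap of the groups 5 of them lay higher and 2 lower in SF, beside 11.3% of all tested genes in either direction. *Ciart* had 13.7, 15.05 and 13.4 CPM in NSF and 17.9, 15.6 and 18.1 CPM in SF libraries, so that its groups did not overlap, with a log2 fold change of 0.29 ± 0.08 (SE, adjusted p = 0.948, limma). *Nfil3* had -0.25 and *Rora* 0.17 on the log2 scale, also without overlap, and *Id2* had 0.14. All 4 had the sign seen in males, without passing the test in females.

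Whether stress acted differently in the sexes was tested by the sex-by-stress interaction, the female minus the male log2 fold change. No member passed, and 0.0269% of all genes did (5 genes). *Per2* came closest among the members, with a difference of 0.46 ± 0.13 (SE, adjusted p = 0.260, limma). Without NSF2, the NSF library with the highest *Per2*, the difference was 0.55 and passed (adjusted p = 0.032), in a fit that called 218 genes in place of 5. For *Arntl* the difference was 0.31 ± 0.11 (SE, adjusted p = 0.400, limma). The remaining 8 members had differences between -0.05 and 0.13. For *Ciart* it was -0.17 ± 0.11 (SE), for *Id2* -0.25, for *Nfil3* 0.18 and for *Rora* -0.05, none past the test, so that the data do not show these genes to respond differently in males and females.

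The sexes were then compared at the same stress condition, in contrasts that share libraries with those above. Between unstressed females and unstressed males no member was called, beside 0.285% of all genes. *Dbp* was higher in every NSF library than in any NSM library, with a log2 difference of 0.28 ± 0.07 (SE, adjusted p = 0.103, limma), and *Arntl* was lower in every NSF than in any NSM library, with -0.24 (adjusted p = 0.157, limma). *Clock*, with -0.07, was the third member whose groups did not overlap, beside 19.5% of all tested genes. Without NSF2 *Arntl* passed the test, with a log2 difference of -0.32 (adjusted p = 0.042), in a fit that called 473 genes in place of 53. Cortical markers were higher in NSF than in NSM libraries as given above, without overlap of these groups. With them as a covariate the log2 difference was 0.29 for *Dbp* (adjusted p = 0.966, limma), as large as without it, and -0.11 for *Arntl* (adjusted p = 0.977, limma).

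Between stressed females and stressed males, *Per2* was the only member called, beside 0.145% of all genes. Its log2 difference, higher in females, was 0.51 ± 0.09 (SE, adjusted p = 0.047, limma), and the 3 SF libraries at 62.9 to 68.4 CPM lay far above the 3 SM libraries at 42.5 to 48.1 CPM. *Dbp* and *Cry2* also did not overlap, with log2 differences of 0.23 (adjusted p = 0.118, limma) and 0.05, beside 20.4% of all tested genes, while *Per3* had 0.22 (adjusted p = 0.253, limma). The call of *Per2* was lost without NSM2 (0.099), SM1 (0.171), SM2 (0.357), SM3 (0.095), NSF3 (0.075), SF2 (0.195) or SF3 (0.181), and 6 of 11 other alternatives gave an adjusted p between 0.058 and 0.072. The *Per2* difference itself stayed between 0.43 and 0.53 in all of the fits named here.

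Whether members moved together between pools of the same group was asked with the deviations of log2 CPM from the group means over the 12 libraries. Of the 45 pairs of members, 30 had a positive and 15 a negative Pearson's r, and none passed an adjusted p under 0.05 by exact permutation within groups (two-sided, 1296 arrangements), while 4 had an unadjusted p under 0.05. The strongest was the pair of *Cry1* and *Nr1d2*, with r = 0.89 (exact permutation p = 0.0062, adjusted p = 0.278) and Spearman's rho = 0.83 (exact permutation p = 0.015, adjusted p = 0.417), and r = 0.85 without the 2 libraries farthest from the median. *Arntl* went with *Nr1d2* at r = 0.73 (exact permutation p = 0.019, adjusted p = 0.339) and rho = 0.59 (exact permutation p = 0.083, adjusted p = 0.417), and at r = 0.63 without the 2 farthest libraries.

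The 4 members known as REV-ERB targets, *Arntl*, *Clock*, *Npas2* and *Cry1*, had positive r in all 6 pairs, from 0.27 to 0.64 with a median of 0.53. The 5 E-box targets *Per2*, *Per3*, *Dbp*, *Nr1d1* and *Nr1d2* did not move as one, with 6 of 10 pairs positive and a median r of 0.0077. Between these 2 arms 11 of 20 pairs were positive. *Cry1* is also an E-box gene, as described above, so the count is no test of opposite timing. All pairs share the libraries and their scaling.

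**Figure D5:**
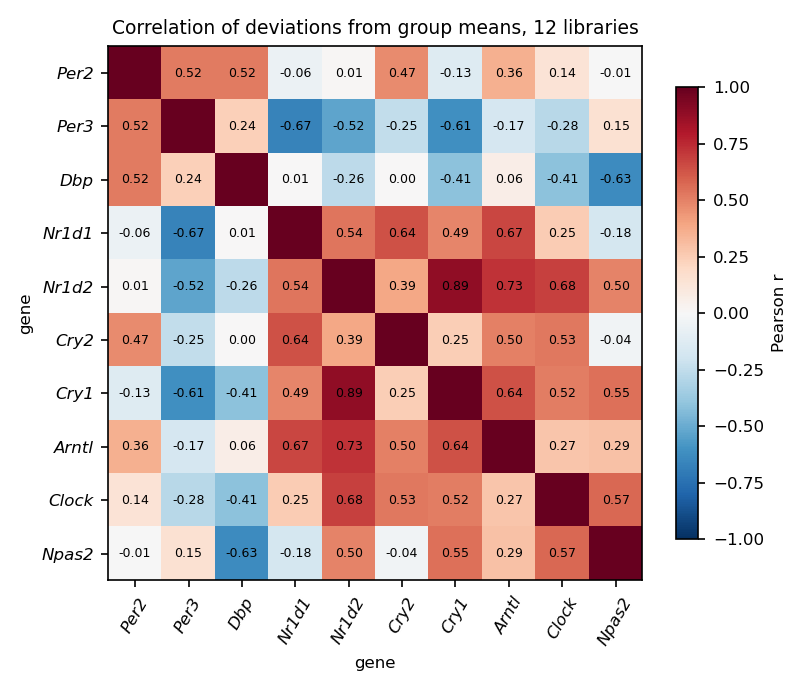
Pearson's r (color, from -1 in blue to 1 in red) between the deviations of log2 CPM from the group means for each pair of the 10 clock genes (both axes) over 12 libraries. *Cry1* and *Nr1d2* at 0.89 are the strongest pair, and the lower right block of *Cry1*, *Arntl*, *Clock* and *Npas2* is positive throughout.

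Among 13101 other genes with a mean of at least 100 reads, those closest to the mean deviation of the 5 E-box targets over the 12 libraries were *Gm4924* (r = 0.98), *Slc9a5*, *Lpp*, *Rab43*, *Atp8b2* and *Grasp* (r = 0.91 for the last). Those closest to the mean deviation of *Arntl*, *Clock*, *Npas2* and *Cry1* were *A830080D01Rik* (r = 0.96), *Ubxn2b*, *Ypel2*, *Cebpz*, *Pcdhb13* and *Pptc7* (r = 0.94 for the last). No gene of the pathway list was among them.

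Of the members, 3 share exonic bases with a gene on the opposite strand. *Dbp* shares 491 of 2945 exonic bases with *Sphk2* (16.7%), *Nr1d1* shares 263 of 3124 with *Thra* (8.42%), and *Cry2* shares 295 of 6320 with *D930015M05Rik* (4.67%). The library kit did not mark the strand, so that reads from these stretches cannot be told apart. *Per2*, *Arntl* and the other 5 members share none.

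Small RNA from the same pools offered a second readout, microRNAs (miRs) known to act on clock mRNAs or to be induced with the clock, listed under the names of precursors. Mature sequences of 3 of them, from RefSeq (build GRCm38.p6), are shown 5′ to 3′ with the seed, bases 2 to 8, in capitals, because miR-132 and miR-212 are the abundant clock-related miRs of neurons and miR-155, which acts on *Arntl* mRNA, had the largest difference.
miR-132-3p, chr11:75173723-75173744, plus strand: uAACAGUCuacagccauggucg
miR-212-3p, chr11:75173443-75173464, plus strand: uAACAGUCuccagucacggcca
miR-155-5p, chr16:84714143-84714165, plus strand: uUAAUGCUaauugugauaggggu

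The first 2 share the seed AACAGUC and lie next to each other on chromosome 11. The precursor mir-132 had 2925, 3201 and 3160 CPM in NSM and 3024, 3101 and 3778 CPM in SM libraries, which overlapped, a log2 fold change of 0.09 ± 0.11 (SE, adjusted p = 0.767, limma). The precursor mir-212 had 880 ± 19.1 CPM (SD, n = 3) in NSM and 870 ± 16.5 CPM in SM libraries. The precursor mir-155 had 6.54, 4.98 and 4.002 CPM in NSM and 3.86, 3.46 and 3.55 CPM in SM libraries, without overlap. SM libraries also lay below all NSM libraries for mir-192 (248 to 252 against 259 to 283 CPM). The same held for mir-194-1 (81.1 to 102 against 105 to 120 CPM). Its other copy, mir-194-2, overlapped between the groups (176 to 199 CPM in SM against 191 to 208 CPM in NSM). The share of all precursors without overlap was not counted.

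That difference of mir-155 in males, a log2 fold change of -0.52 ± 0.22 (SE), did not pass the test (adjusted p = 0.332, limma) and rests on 21 to 47 reads per library. It passed the rule of the study, with 0.699 times the unstressed level, beside 5.2% of all precursors. In females mir-155 had 4.90 ± 0.571 CPM in NSF and 4.75 ± 1.06 CPM in SF libraries (SD, n = 3). None of the 7 listed precursors that passed the filter was called in males or females by stress, as was none of all 500 precursors tested (0%, with 62 in males and 40 in females at an unadjusted p under 0.05), or by the interaction, beside 0.2% of all precursors. The 5 other listed precursors, 4 of the mir-219 family and mir-142, held 2 reads in all 12 libraries together and were not tested. Each of these hairpins overlaps another on the opposite strand by 60 to 65 bases.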

How the data were processed

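Both assays were made from the same pools. The authors aligned paired mRNA reads with TopHat2 to NCBIM37 and counted them per Ensembl gene with HTSeq, and used Bowtie (mm9) and HTSeq for small RNA reads, and the deposited values are raw counts without normalization. The strand setting of the counting is not given in the sources used here. The methods name mature miRBase entries for the small RNA counts while the deposited rows carry precursor names, so which part of a hairpin a row counts is not settled. Symbols and exon lengths came from GENCODE annotation of NCBIM37.

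A gene was kept if, in any group, 80% or more of the libraries held over 5 reads of it. Kept genes were scaled by TMM factors (edgeR 4.0.16) and tested with limma 3.58.1 (voom, 1 mean per group, R 4.3.3). P values were adjusted by the method of Benjamini and Hochberg across every feature tested in an assay, and a gene rose or fell at an adjusted p under 0.05. CPM and RPKM use TMM-scaled totals. All 10 members were named. Of the 23 pathway genes, those called in any comparison and the next 6 by p in males were named, and nearest genes were the 6 with the highest r. The members and lists were chosen with earlier results of these data known. The steps were tested on simulated data. Small RNA libraries held 5086554 to 13522287 reads. Every pair of replicates differed by more than sampling noise. Correlations used Python 3.11.15 and numpy 2.4.6. Alternatives tried were DESeq2 1.42.0, the quasi-likelihood test of edgeR, other scalings and filters, fits to only the compared libraries, library weights, a replicate block, a cortical marker covariate, and fits that each left out 1 library.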

Additional observations from a re-analysis of the deposited data

Results flagged for a closer look

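The stress effect on *Per2* pointed in different directions in the sexes, since all 3 SM libraries lay below the NSM mean and all 3 SF libraries above the NSF mean. The female groups overlapped, and the female log2 fold change of 0.09 ± 0.09 (SE) turned to -0.02 without NSF1. The difference between the log2 fold changes was 0.46, and the interaction test did not pass (adjusted p = 0.260, limma). The adjusted p under the 10 alternatives that use all libraries ranged from 0.080 to 0.882.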

How the results depend on the processing

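Of 72 fold changes of members, named pathway genes and miRs, 44 kept their sign and their side of the threshold in all alternatives other than those that left out 1 library. The cause of the changes below was not tested. With DESeq2's test 1 member and 1 pathway gene were called between unstressed sexes and 1 pathway gene between stressed sexes. With DESeq2's size factors, quantile normalization, scaling by library size, the filter for 1 read or that for 10 reads no member was called between stressed sexes (0). With the cortical covariate 0 members and 0 pathway genes were called and 0 members were past 1.3-fold in males, 0 were past 1.3-fold in the interaction, and 0 were called between stressed sexes. In males the filter for 1 read left 1 member and 1 pathway gene, scaling by library size left 2 pathway genes and put 2 members past 1.3-fold, and a fit to the compared libraries left 2 pathway genes (1 was called between stressed sexes). Library weights called 1 member between unstressed sexes (365 of all genes against 53), and 3 members and 1 pathway gene between stressed sexes (1901 of all genes against 27).

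Same-numbered mRNA libraries of stressed and unstressed males correlated in their deviations at 0.024, -0.0003 and 0.315, and those of females at 0.101, 0.078 and 0.107. For small RNA the values were 0.058, -0.013 and 0.313 in males and 0.112, 0.192 and 0.312 in females. The numbers were not taken to pair the pools, and a block for them was fitted as an alternative. With the replicate block 2 members were still called in males (998 of all genes against 618). Between unstressed sexes 1 member (*Dbp*, adjusted p = 0.032, limma) and 1 pathway gene were called (562 of all genes against 53). Between stressed sexes 1 pathway gene was called (837 of all genes against 27).

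Without 1 library at a time, the members called ranged from 0 to 2 in males, 0 to 1 between stressed sexes, 0 to 1 between unstressed sexes and 0 to 1 in the interaction, and the pathway genes called from 0 to 4 in males and 0 to 1 between stressed sexes. Of all genes 79 to 972 were called in males and 0 to 61 in females. Members past 1.3-fold ranged from 0 to 2 in males and in the interaction. Leaving out 1 library also turned the sign of differences near 0, with ranges in males of -0.0094 to 0.037 for *Cry2*, -0.037 to 0.032 for *Clock*, -0.0095 to 0.064 for *Nr1d2* and -0.016 to 0.14 for mir-132. In females they were -0.020 to 0.18 for *Per2*, -0.059 to 0.043 for *Cry1*, -0.014 to 0.043 for *Cry2*, -0.014 to 0.033 for *Clock*, -0.24 to 0.040 for mir-155 and -0.13 to 0.060 for mir-132. In the interaction they were -0.027 to 0.038 for *Cry2*, -0.0097 to 0.055 for *Clock*, -0.14 to 0.0097 for *Npas2* and -0.088 to 0.036 for *Nr1d1*. Between unstressed sexes they were -0.045 to 0.15 for *Per2*, -0.026 to 0.11 for *Npas2*, -0.031 to 0.088 for *Nr1d1* and -0.057 to 0.012 for *Nr1d2*, and between stressed sexes -0.0056 to 0.080 for *Cry1*, -0.0077 to 0.13 for *Arntl*, -0.094 to 0.046 for *Npas2* and -0.030 to 0.040 for *Nr1d1*.

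Under the other alternatives the values that took another sign were all uncalled and at most 0.057 in size. In males *Cry2* was -0.047 under library size scaling, -0.010 under quantile normalization and -0.0018 with the filter for 1 read, *Clock* was 0.0026 with DESeq2's test, 0.0017 with its size factors and 0.025 with the covariate, and *Nr1d2* was -0.034 under library size scaling and -0.0051 with library weights. In females *Cry1* was 0.0050 with DESeq2's test, 0.0034 with its size factors, 0.00073 under quantile normalization and 0.00072 with the filter for 1 read, *Clock* was -0.0029 under library size scaling, and mir-132 was 0.041, 0.052 and 0.024 under library size scaling, quantile normalization and library weights. In the interaction the covariate gave -0.021 for *Cry1*, -0.039 for *Cry2* and -0.023 for *Clock*, and *Nr1d1* was 0.026 under library size scaling and 0.0016 with the filter for 1 read. Between unstressed sexes the covariate gave -0.0078 for *Per3*, 0.042 for *Cry1* and 0.057 for *Nr1d2*, and *Nr1d1* was -0.0039 under library size scaling and -0.0012 under quantile normalization. Between stressed sexes *Npas2* was 0.0059 under library size scaling, and *Nr1d1* was -0.0031, -0.0035, -0.0073, -0.014 and -0.013 with DESeq2's test, its size factors, the covariate, library weights and quantile normalization.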
